A study of Glycine max with 47 samples.

Results

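The comparison described here is between control roots of soybean cultivar Williams 82 (PI518671) at 30 and at 5 days post infestation (dpi). Its 6 libraries, 3 per time point, were taken by their labels from the 47 libraries of the series. Control plants carried neither soybean aphid (SBA) nor soybean cyst nematode (SCN), so that dpi counts the days since aphids were placed on the plants of the SBA treatments. PI518671 is susceptible to both pests, and the second cultivar, MN1806CN, is resistant to the SCN population used. Both cultivars were grown as control, SCN, SBA and SCN:SBA plants, SCN eggs being given at planting and aphids at the second vegetative stage. Each library is the whole root of a single plant, and the 3 plants of a group came from different blocks of the greenhouse. The 5 dpi roots were collected from 1 water bath and the 30 dpi roots from another, so time and water bath cannot be told apart in any comparison below. The study describes a soil mixture that included SCN-infested clay soil, and whether the pots of control plants held it is not given in the sources used here.

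Between these time points a soybean plant passes from early vegetative growth towards flowering and pod set. A whole root then holds more lateral root, more lignified tissue and, where rhizobia are present, nodules that exchange fixed nitrogen for sugar. In bulk RNA a gene can be lower because each cell holds less of its RNA or because fewer cells of the expressing type are present, and these cannot be told apart. Gene models are those of Wm82.a2.v1, whose identifiers give the chromosome. None of the 55983 identifiers matched the gene table used here, so no gene is given a name or a role, and the tissue label was not checked against root, nodule, leaf or seed markers. Genes are therefore described by level, chromosome and behaviour, and 4 of them by identifier.

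The 5 dpi libraries stood apart from the others and from each other. Total estimated counts were 16044575, 20094932 and 19994398 for replicates 1, 2 and 3 at 5 dpi, and 17937086, 25409754 and 17574406 at 30 dpi, within the 8472681 to 47902105 of the whole series. At 5 dpi 35676, 30857 and 30448 genes reached a level of 0.5 CPM (estimated counts scaled to the size of the library), against 36326, 36374 and 36692 at 30 dpi. The 44 libraries outside the 5 dpi control held 34066 to 37793 such genes, so that replicates 2 and 3 fell below all of them and replicate 1 did not. The 100 most abundant genes took 14.0%, 29.6% and 23.2% of counts at 5 dpi, and 11.8%, 12.0% and 11.4% at 30 dpi. In the other 44 libraries this share was 9.13% to 20.7%, with a median of 12.7%, and its upper end was in MN1806CN control roots at 5 dpi, at 20.7%, 18.1% and 19.9%. The number of detected genes was 36464 ± 198.9 at 30 dpi and 32327 ± 2908 at 5 dpi (SD, n = 3 each), and an exact two-sided permutation test gave p = 0.1, the smallest that 3 against 3 libraries allow. The same exact permutation test gave p = 0.1 for the share of the 100 most abundant genes, so neither difference could pass 0.05 in this design.

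Replicate 1 lay between the other 5 dpi roots and the 30 dpi roots. Pearson's r across genes was 0.981 to 0.989 among the 30 dpi libraries and 0.901 to 0.963 among the 5 dpi libraries. Replicate 1 at 5 dpi had r of 0.857 to 0.861 with the 30 dpi libraries, replicate 2 had 0.770 to 0.772 and replicate 3 had 0.733 to 0.748. These values are across genes of single libraries, and genes are not independent replicates. The SD between replicates of log2(CPM + 1) had a median over genes of 0.417 at 5 dpi and 0.159 at 30 dpi, and it was larger at 5 dpi in 35033 genes (81.2%). Of 9 genes whose levels separated the other PI518671 libraries from all MN1806CN libraries by 8-fold or more, each 5 dpi control library had 8 on the PI518671 side and each 30 dpi control library had 9. Because the 5 dpi roots differ so much among themselves, the main results are given below also for replicate 1 alone and without it. A fit with replicate 1 alone also has fewer libraries, and no other 5 dpi library was fitted alone. Its counts of genes therefore mix the loss of libraries with the state of replicate 1.

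Of 43122 genes tested, 15153 (35.1%) changed between the time points at an adjusted p under 0.05 in edgeR's quasi-likelihood F test with Benjamini-Hochberg adjustment. At 30 dpi 7822 genes were higher (18.1%) and 7331 were lower (17.0%). This main fit shares its estimate of the spread over all 24 PI518671 libraries. A fit of the 6 control libraries alone called 10905 genes, 5640 higher and 5265 lower, of which 10488 had the same call in the main fit. In the main fit the numbers were almost even, but the sizes and levels of the changes were not. Among the genes that rose, 4188 rose at least 4-fold and 1102 at least 16-fold, whereas 2390 of those that fell did so at least 4-fold and 489 at least 16-fold. At 64-fold and above both directions held 162 genes. Folds are ratios of mean CPM scaled by TMM factors (edgeR's correction for library composition), with a low group set to no less than 3 counts per library, so that the fold of an undetected gene is a lower bound. On that scale the median log2 change was 2.10 for genes that rose, -1.56 for genes that fell and -0.02 over all genes tested.

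More genes rose than fell in the classes under 10 CPM, and more fell than rose in those above. Of the 6570 genes with a mean under 0.5 CPM over the 6 libraries, 12.0% rose and 2.85% fell. Between 1 and 10 CPM, 21.7% of 15498 genes rose and 12.4% fell. The order was the opposite between 10 and 100 CPM, where 16.6% of 16082 genes rose and 25.9% fell, and between 100 and 1000 CPM, where 22.5% of 1973 rose and 39.1% fell. Above 1000 CPM, 56 of 65 genes fell and 4 rose. The levels that define these classes include both time points, and a gene that is very abundant at 5 dpi alone reaches the top class through that time point. The split between directions also depended on the scaling, since with library totals in place of TMM factors 8837 genes rose and 4459 fell, and the median fitted log2 change of all genes was 0.41 in place of 0.09.

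**Figure D1:**
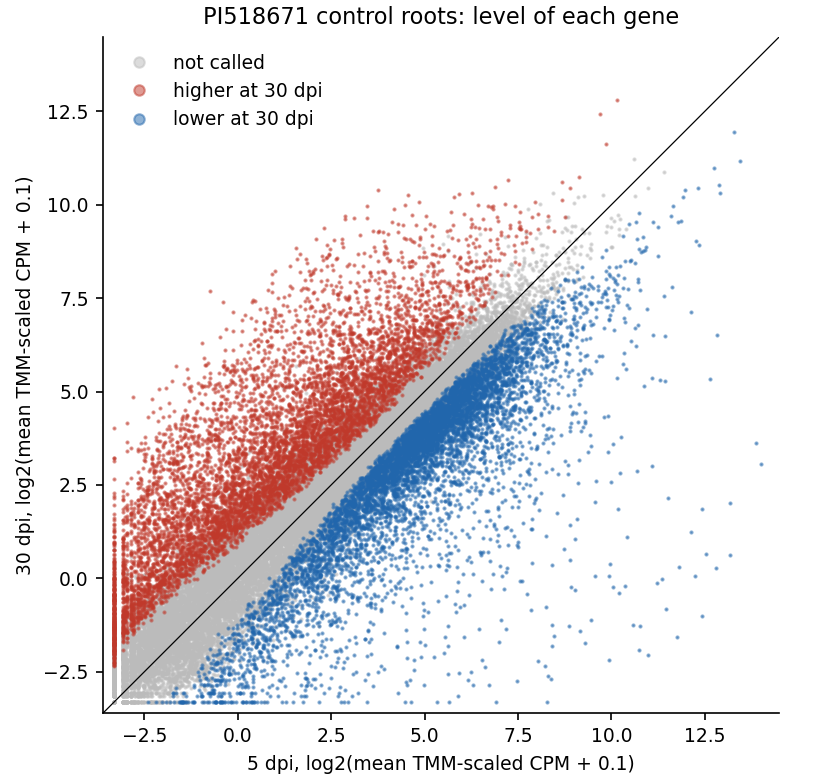
Level of each of the 43122 genes tested in PI518671 control roots, as log2 of the mean TMM-scaled CPM plus 0.1, at 5 dpi (x axis) and 30 dpi (y axis), with 3 libraries per time point. Red points are the 7822 genes called higher at 30 dpi, blue points the 7331 called lower and grey points those not called; the blue points reach far to the lower right, where genes above 1000 CPM at 5 dpi were near 0 at 30 dpi.

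In 18866 of the genes tested (43.8%) the 3 libraries of one time point all lay above the 3 of the other, on CPM scaled by library totals. They were higher at 30 dpi in 12071 of the genes tested (28.0%) and lower in 6795 (15.8%). The calls used TMM factors, and the split between directions depends on the scaling, as given above. Of the genes called, 13632 (90.0%) had such separated ranges, which were 7478 of the 7822 that rose and 6154 of the 7331 that fell. For 89.6% of the genes that fell, replicate 1 was the 5 dpi library nearest to the 30 dpi mean, and for 67.3% of the genes that rose. Among genes not called the share was 55.6%. With replicate 1 as the only 5 dpi library, 4188 genes were called (2898 higher and 1290 lower), of which 4008 were called in the same direction with all 3. Without replicate 1 the number was 19667, and 14568 of the 15153 genes were among them. No gene called with all 3 libraries was called in the opposite direction in either fit.

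Of the 5 most abundant genes of the 5 dpi root, those ranked 1, 2 and 5 were nearly absent at 30 dpi. The gene with the highest mean at 5 dpi, on chromosome 15, stood at 3338, 21011 and 25534 CPM in replicates 1, 2 and 3, and at 7.85, 3.96 and 13.0 CPM at 30 dpi. The groups were far apart, although replicate 1 held only a small part of the level of the other 5 dpi roots. Its log2 change was -11.0 (SE 1.8, n = 3 per group, edgeR adjusted p = 7.2e-05). The second gene, on chromosome 17, had 3581, 19915 and 21465 CPM at 5 dpi and 17.7, 8.24 and 10.5 CPM at 30 dpi (log2 change -10.3, SE 1.0, edgeR adjusted p = 5.2e-07). The fifth, on chromosome 5, had 2637, 17645 and 7789 CPM at 5 dpi and 2.65, 2.18 and 7.0 CPM at 30 dpi (log2 change -11.2, SE 1.4, edgeR adjusted p = 7.7e-06). Replicate 1 was lowest at 5 dpi for each of these 3 genes and still more than 100-fold above every 30 dpi root.

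The next genes in the order at 5 dpi were abundant at both times. The third of them, on chromosome 13, had 2807, 25204 and 5325 CPM at 5 dpi and 1772, 2425 and 2767 CPM at 30 dpi. Its high mean rested on replicate 2, the 5 dpi range lay just above the 30 dpi range, and the log2 change was -2.26 (SE 0.73, edgeR adjusted p = 0.0201). The fourth, on chromosome 9, had 9664, 8202 and 12191 CPM at 5 dpi and 3149, 4825 and 3855 CPM at 30 dpi, with replicate 1 between the other 5 dpi roots. It fell by 1.35 on the log2 scale (SE 0.49, edgeR adjusted p = 0.0376) and was the only gene among the 5 most abundant at both times.

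The most abundant RNAs of the 30 dpi root were already present at 5 dpi. The first, on chromosome 13, had 2528, 548 and 333 CPM in the 5 dpi replicates and 7687, 7923 and 5898 CPM at 30 dpi (log2 change 2.66, SE 0.69, edgeR adjusted p = 0.00508). The second, on chromosome 12, had 2136, 214 and 136 CPM at 5 dpi and 5183, 5805 and 5452 CPM at 30 dpi (log2 change 2.73, SE 0.73, edgeR adjusted p = 0.00604). Both were highest in replicate 1 among the 5 dpi roots, and neither group overlapped the other. The fourth, on chromosome 7, had 1330, 712 and 755 CPM at 5 dpi and 3262, 3452 and 2791 CPM at 30 dpi (log2 change 1.76, SE 0.55, edgeR adjusted p = 0.0172). The fifth, on chromosome 20, had 1848, 1600 and 1250 CPM at 5 dpi and 2359, 2579 and 2277 CPM at 30 dpi, and its difference did not pass the test (log2 change 0.62, SE 0.29, edgeR adjusted p = 0.0992).

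**Figure D2:**
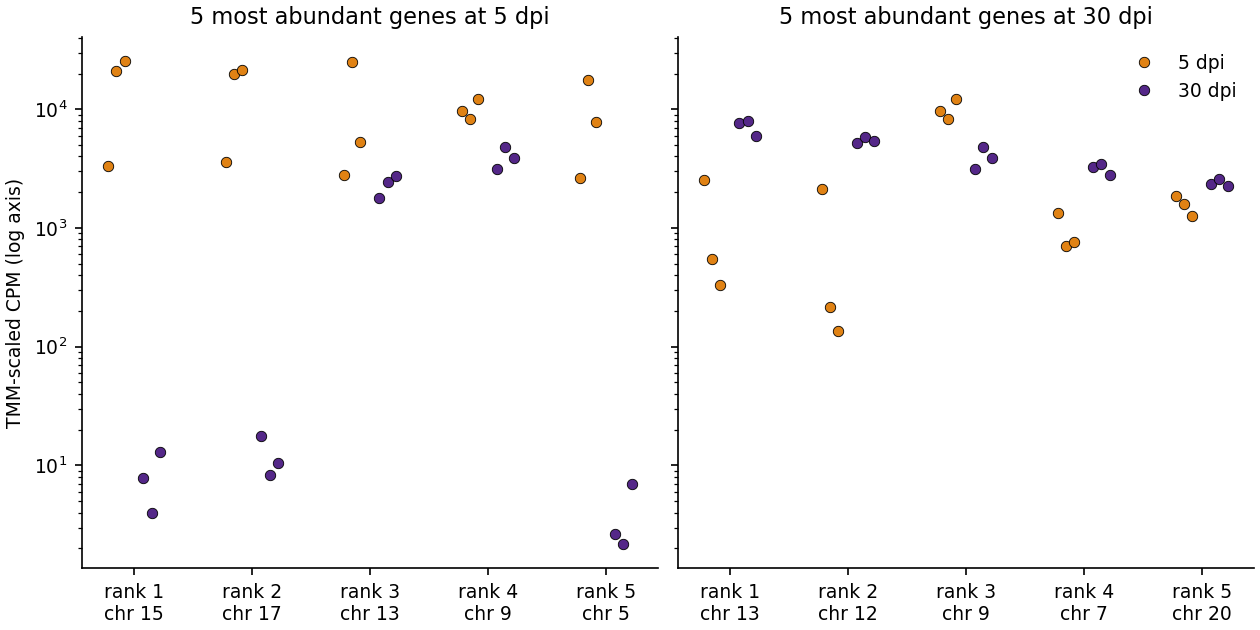
TMM-scaled CPM (log axis) in the 6 PI518671 control libraries of the 5 genes with the highest mean at 5 dpi (left) and at 30 dpi (right), each named by rank and chromosome. Orange points are the 5 dpi and purple points the 30 dpi replicates, in the order 1, 2 and 3; the genes ranked 1, 2 and 5 at 5 dpi drop from above 1000 CPM to under 20 CPM, and no gene in the right panel changes by nearly as much.

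The sets of abundant genes overlapped little. The 100 most abundant genes at the 2 times had 22 in common, and the 1000 most abundant had 370 in common. Of the 100 most abundant at 5 dpi, 92 fell and none rose. Of the 100 most abundant at 30 dpi, 59 rose and 17 fell. Each of these lists was chosen by the level at one of the times compared, which favours the direction found, so the counts describe the lists and test nothing.

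Detection also differed. In 352 of the genes that rose, no count was found in any 5 dpi control library, and in 75 of those that fell none was found in any 30 dpi library. Over all 43122 genes tested, 943 had counts at 30 dpi but none at 5 dpi, and 189 had counts at 5 dpi but none at 30 dpi. The uneven split was thus not particular to the genes called. The limit of detection also differed, since 3 counts per library stand at 0.214 CPM at 5 dpi and 0.152 CPM at 30 dpi. A gene of low level is therefore more easily missed at 5 dpi, and how much of the split this makes up was not tested. Of the 10 genes with the largest positive fitted change, chosen among genes with separated ranges and a mean of at least 1 CPM, 9 were at 0 counts in all 3 libraries at 5 dpi. The fitted change has no floor, so this ranking favours genes at 0 counts and the number only describes the list. The mean levels of these 10 genes at 30 dpi were modest, from 3.82 to 17.8 CPM. Of the 10 genes with the largest negative change, 4 were at 0 counts at 30 dpi, and their mean levels at 5 dpi ran from 40 to 9334 CPM. The folds of the rising 10 were 17.9 to 83.4, of which 9 are lower bounds, and those of the falling 10 were 264 to 14593, of which 4 are. Of the falling 10, 4 were on chromosome 9.

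Glyma.17g214700, on chromosome 17, had no counts in the 5 dpi control roots and 14.0, 19.0 and 15.9 CPM in the 30 dpi roots. Its mean was 16.3 ± 2.53 CPM at 30 dpi (SD, n = 3), at least 76.3-fold above the 0.214 CPM to which 3 counts per library correspond at 5 dpi (edgeR adjusted p = 1.1e-07). It was present in every infested PI518671 root at 5 dpi, with 7.47 to 23.9 CPM under SCN, 4.71 to 7.54 CPM under SCN:SBA and 0.95 to 2.34 CPM under SBA. The undetected level was thus found in control roots of the first time point alone among the PI518671 groups.

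Glyma.03g011600, on chromosome 3, likewise had no counts at 5 dpi and had 6.85, 10.1 and 10.9 CPM at 30 dpi. The mean at 30 dpi was 9.28 ± 2.14 CPM (SD, n = 3), at least 43.4-fold higher (edgeR adjusted p = 0.00099). With replicate 1 as the only 5 dpi library the log2 change was 10.8, against 10.7 in the main fit. The call did not hold there, with 1 library at 5 dpi in place of 3. In the infested PI518671 roots it was found at 0 to 8.44 CPM at 5 dpi and at 0 to 12.2 CPM at 30 dpi, scaled by library totals, and these ranges overlapped. Counts of 0 also stood beside high counts within a group, with 63, 0 and 339 rounded counts under SBA at 30 dpi. Whether reads are shared between this gene and similar transcripts was not tested, so its 0 counts may not mean absence.

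Glyma.09g163200, on chromosome 9, had 180, 356 and 390 CPM in the 5 dpi control roots and no counts in the 30 dpi control roots. The mean at 5 dpi was 309 ± 113 CPM (SD, n = 3), at least 2034-fold above the 0.152 CPM of 3 counts per library at 30 dpi (edgeR adjusted p = 4.8e-06). It had no counts in any infested PI518671 root at 5 dpi and 0.0952 to 3.70 CPM in those at 30 dpi. The 5 dpi control roots therefore exceeded all other PI518671 roots by a wide margin, replicate 1 included. Over all MN1806CN libraries its highest level, scaled by library totals, was 30.4 CPM, in an SCN:SBA root at 30 dpi.

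Glyma.13g014600, on chromosome 13, had 11.2, 101 and 249 CPM at 5 dpi and no counts at 30 dpi. The replicates were far apart, with a mean of 120 ± 120 CPM (SD, n = 3), at least 792-fold above the limit at 30 dpi (edgeR adjusted p = 0.00189, DESeq2 adjusted p = 0.0504). No other PI518671 library had a count of it. The test of the difference in change between control and infested roots gave an edgeR adjusted p of 1. With no counts in any infested root that test cannot decide for this gene, and nothing is read from it. In MN1806CN it was found in some or all libraries of 7 of the 8 groups, at up to 130 CPM scaled by library totals. Salmon shares reads among similar transcripts, and without their sequences it was not tested whether such a gene has near-identical copies. Its level is uncertain for that reason.

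**Figure D3:**
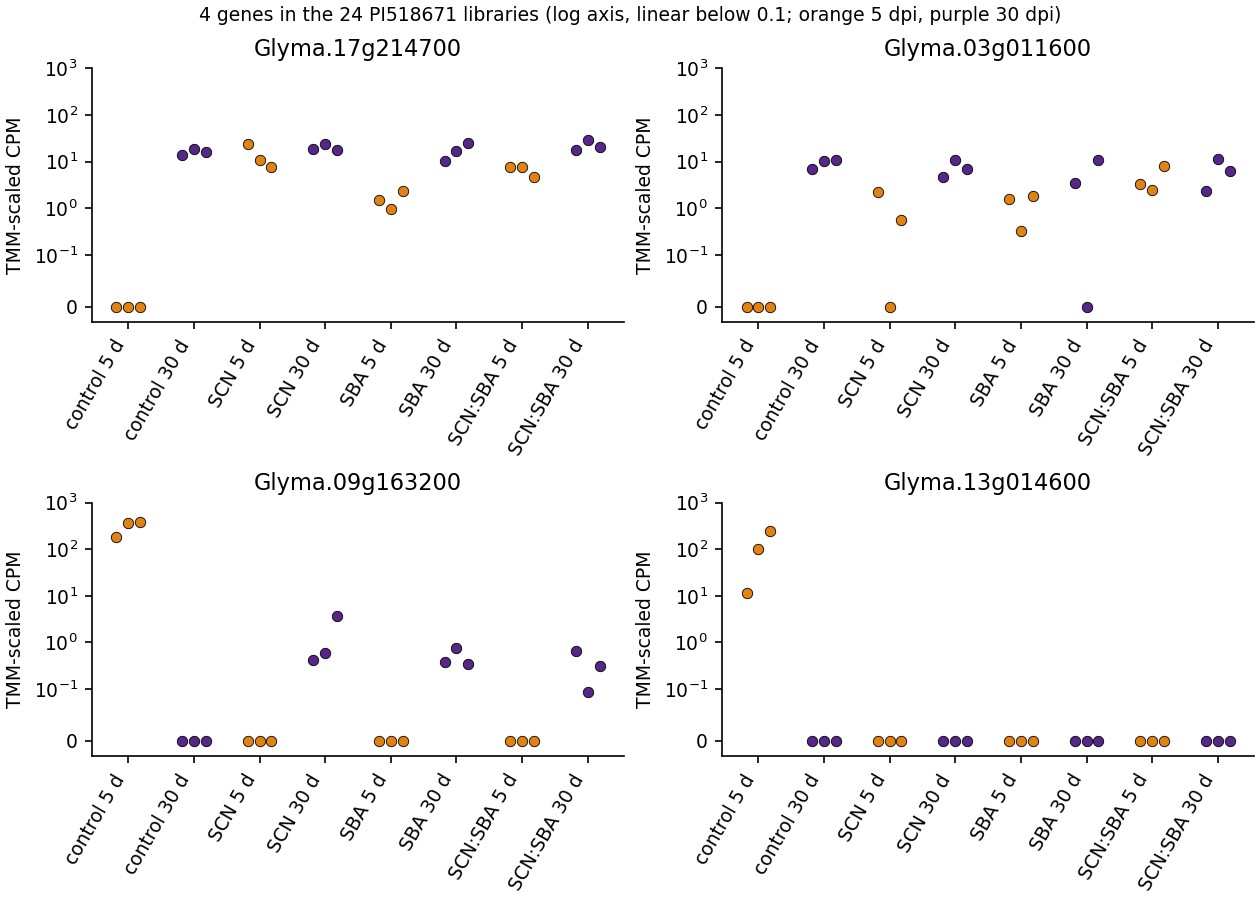
TMM-scaled CPM of 4 genes in the 24 PI518671 libraries (log axis, linear below 0.1), by treatment, with 5 dpi in orange and 30 dpi in purple and replicates in the order 1, 2 and 3. The 2 upper genes were at 0 in the 5 dpi control, and the 2 lower genes had their highest levels there, at 180 to 390 and at 11.2 to 249 CPM.

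The 162 genes that were at least 64-fold lower at 30 dpi took a far larger share of the estimated counts at 5 dpi than at 30 dpi. The fold limit was chosen after the values were seen, and the nearest genes on its 2 sides had folds of 64.21 and 63.6. Together these genes made up 4.58%, 15.2% and 14.1% of the counts of the 5 dpi replicates and 0.0458%, 0.0377% and 0.0532% of those at 30 dpi. Replicate 1 had the lowest level of the 3 in 157 of the 162, and its ratio to replicate 2 had a median of 0.159, with quartiles of 0.120 and 0.231. The ratio of replicate 3 to replicate 2 had a median of 0.779. The genes of this group were thus lower in replicate 1 by a similar factor. At 5 dpi 36 of them had a mean of 1000 CPM or more and 103 of 100 CPM or more, and at 30 dpi none reached 100 CPM. With replicate 1 as the only 5 dpi library, 71 genes were called at this fold.

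Infested roots of the same cultivar and age did not show this expression. The share of counts of the 162 genes was 0.0848% to 0.209% in the 9 infested PI518671 libraries at 5 dpi and 0.112% to 0.300% in the 9 at 30 dpi. In 156 of the 162 genes the lowest 5 dpi control library lay above every infested 5 dpi library, as it did in 7.93% of all genes tested, and in 149 it lay above every other PI518671 library, as in 6.53% of all genes. The 162 were chosen for a high level in these control libraries, so nothing is read from those counts. Between 5 and 30 dpi the mean of the infested roots rose in 65 of them and fell in 7 by edgeR's test, where 9.39% and 6.82% of all genes tested did so. Their median level was 181 CPM in control roots at 5 dpi, 0.631 CPM in control roots at 30 dpi, 0.809 CPM in infested roots at 5 dpi and 4.13 CPM in infested roots at 30 dpi. In MN1806CN control roots the share was 0.321% to 0.359% at 5 dpi and 0.101% to 0.111% at 30 dpi. The nearest approach to the 5 dpi PI518671 control was in MN1806CN roots under SCN:SBA at 30 dpi, with 0.717% to 4.11%.

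The 162 genes that were at least 64-fold higher at 30 dpi behaved otherwise in infested roots. The nearest genes on the 2 sides of the limit had folds of 64.26 and 63.85. They took 0.0200%, 0.0299% and 0.0140% of the counts of the 5 dpi control replicates and 2.84%, 2.76% and 2.61% at 30 dpi, replicate 1 being no exception here. At 5 dpi the share was 1.14% to 2.59% under SCN, 0.532% to 0.766% under SCN:SBA and 0.0863% to 0.207% under SBA, so the 3 treatments did not overlap. At 30 dpi it was 2.01% to 4.33% in the infested roots. The mean of the infested roots rose between the time points in 155 of these genes and fell in none, where 9.39% and 6.82% of all genes tested did so. Their median level was 0.809 CPM in control roots at 5 dpi, 25.5 CPM in infested roots at 5 dpi, 82.5 CPM in control roots at 30 dpi and 74.2 CPM in infested roots at 30 dpi. In 86 of the 162 the highest 5 dpi control library lay below every other PI518671 library, as in 7.13% of all genes tested, but the set was chosen for a low level in those control libraries. In MN1806CN control roots the share was 0.0879% to 0.186% at 5 dpi and 2.97% to 3.53% at 30 dpi.

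**Figure D4:**
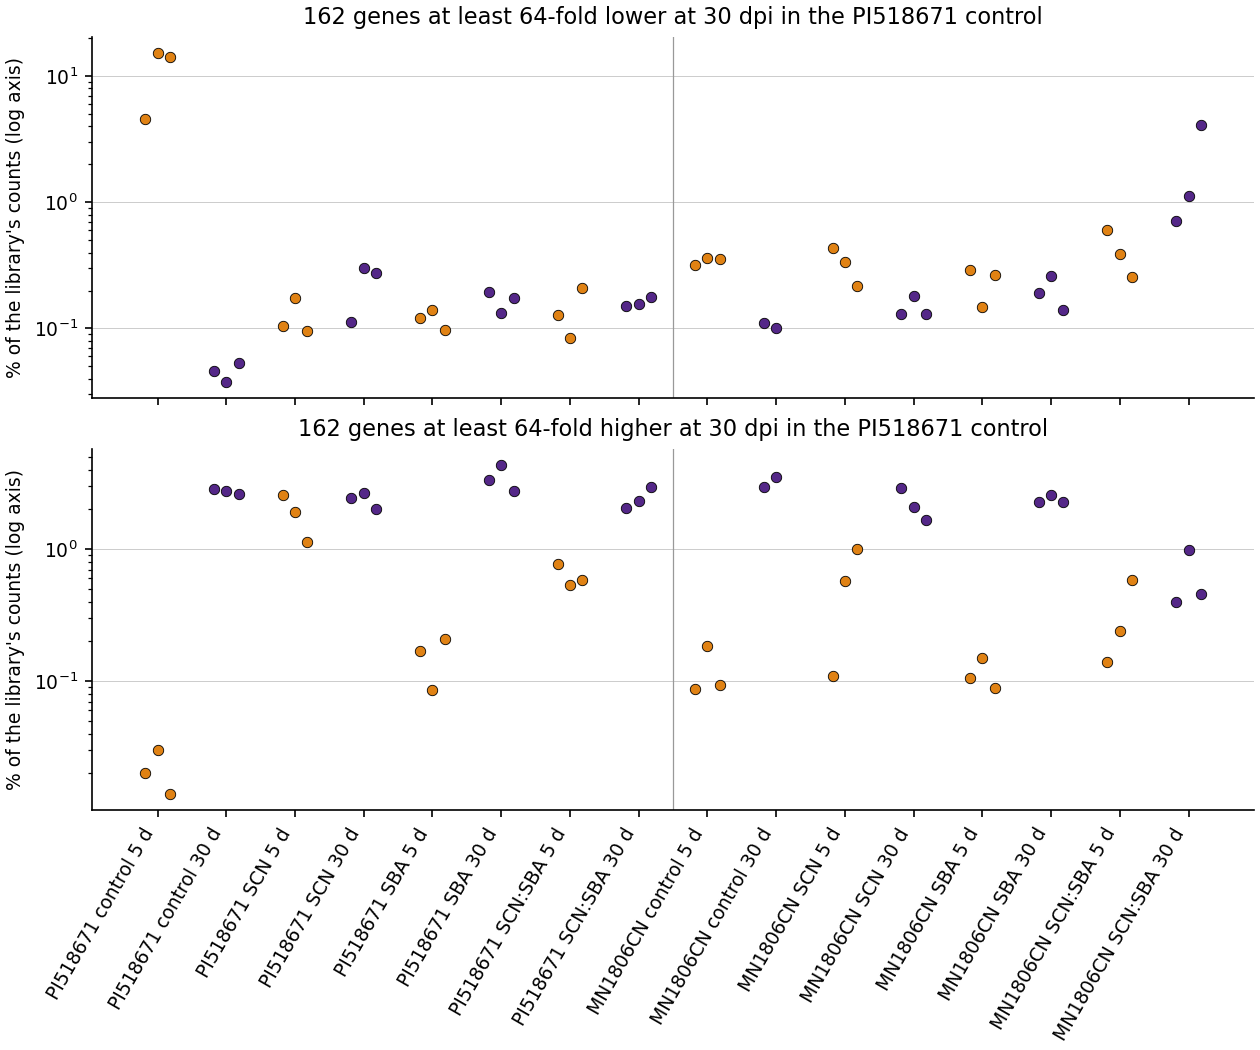
Share of each library's counts (%, log axis) taken by the 162 genes at least 64-fold lower (top) and the 162 genes at least 64-fold higher (bottom) at 30 dpi in PI518671 control roots, in all 47 libraries, 5 dpi in orange and 30 dpi in purple. The 3 control libraries at 5 dpi sit at 4.58% to 15.2% in the top panel and at 0.0140% to 0.0299% in the bottom panel, both sets being chosen on the PI518671 control libraries, and the 5 dpi infested libraries of PI518671 lie at 0.0848% to 0.209% in the top panel.

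Neighbouring genes often changed together. The called genes were spread over the genome, from 33.7% of the genes tested on chromosomes 10 and 15 to 37.7% on chromosome 1. Of the genes that rose, 43.9% had a next tested gene on the same chromosome that also rose, where 32.5% of all genes lie beside such a gene. Of those that fell, 40.6% had a falling neighbour, against 30.7%. The difference was larger for the strongest changes, since 43 of 161 genes placed on chromosomes and at least 64-fold lower (26.7%) had a neighbour of the same kind, against 0.707% of all genes. For the genes at least 64-fold higher it was 25 of 161 (15.5%), against 0.735%. Similar transcripts of tandem copies can share reads, and how many of these neighbours are copies was not tested.

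The strongest falls included 2 unbroken runs of 9 neighbouring genes. The run on chromosome 18 summed to 7594, 52137 and 32332 CPM in the 5 dpi replicates and to 7.19, 5.23 and 9.50 CPM at 30 dpi. Its 9 genes had mean levels of 634 to 7150 CPM at 5 dpi and of 0.201 to 1.46 CPM at 30 dpi, with edgeR adjusted p from 1.1e-07 to 1.6e-05, and replicate 1 was the lowest 5 dpi library for all 9. The run on chromosome 9, to which Glyma.09g163200 belongs, summed to 2543, 12350 and 10869 CPM at 5 dpi and to 2.76, 4.12 and 4.32 CPM at 30 dpi. Its genes had mean levels of 22.2 to 3489 CPM at 5 dpi and of 0 to 2.58 CPM at 30 dpi, with edgeR adjusted p from 1e-07 to 0.00015. Both runs were thus high in every 5 dpi control root and close to silent in every 30 dpi control root.

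Infested PI518671 roots at 5 dpi held very little RNA of either run. The chromosome 18 run took 0.844%, 2.22% and 3.06% of the counts of the 3 control libraries at 5 dpi, in ascending order, and at most 0.000297% in any infested PI518671 library at 5 dpi. In infested PI518671 roots at 30 dpi it took 0.00232% to 0.0273%. All 9 of its genes rose between the time points in the mean of the infested roots, as did 7 of the 9 on chromosome 9, where 9.39% of all genes did so. Outside the 5 dpi control the highest shares were those of MN1806CN under SCN:SBA at 30 dpi, 0.0428% to 0.701% for the run on chromosome 18 and 0.0273% to 0.111% for that on chromosome 9.

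The time change of infested PI518671 roots was smaller in number of genes. Between 30 and 5 dpi 33 genes were called under SCN (0.0765%), 22 higher (0.0510%) and 11 lower (0.0255%). Under SBA the number was 4945 (11.5%), with 3686 higher (8.55%) and 1259 lower (2.92%). Under SCN:SBA it was 1620 (3.76%), with 1071 higher (2.48%) and 549 lower (1.27%). The 33 under SCN compare with 3324 at an unadjusted p under 0.05 and with 257 by DESeq2. For the mean of the 3 treatments 6986 genes were called (16.2%), 4047 higher (9.39%) and 2939 lower (6.82%). The difference between the control change and this mean change was itself past the threshold in 10123 genes (23.5%), 5277 more positive (12.2%) and 4846 more negative (11.2%) in the control. That number was 1363 with replicate 1 as the only 5 dpi control library, 15822 without replicate 1, 6506 without replicate 2 and 6335 without replicate 3.

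Most genes that changed in control roots were not called in the infested mean. Of the 15153, 3986 (26.3%) were called in the same direction, 352 in the opposite direction and 10815 (71.4%) in neither. The share with the same call was 36.3% for genes that rose and 15.6% for genes that fell. In 9166 of the 15153 (60.5%) the difference in change was past the threshold. The control change is a term of that difference and also chose these genes, so their share is a description. The most abundant gene of the 5 dpi control was an example of the opposite direction, with a log2 change of -11.0 in control roots and of 4.10 in the infested mean (SE 0.76, edgeR adjusted p = 0.00064). The fifth differed more, with -11.2 in the control and 10.2 in the infested mean (SE 0.91, edgeR adjusted p = 4e-07). These fitted changes have no floor. The fifth was among the 5 genes of most negative difference in change, with a mean of at least 1 CPM. The infested means of those 5 were 0 to 0.0574 CPM at 5 dpi and 0.804 to 42.0 CPM at 30 dpi. Its rise thus began at almost no counts and stayed far below the level of the 5 dpi control.

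The groups at each time point show where control and infested roots differed. At 5 dpi the control differed from the mean of the infested groups in 17128 genes (39.7%), 8047 higher (18.7%) and 9081 lower (21.1%) in the control. With replicate 1 as the only 5 dpi control library the number was 2073. At 30 dpi it was 0 genes by edgeR's test in the 24 PI518671 libraries, with 5199 at an unadjusted p under 0.05. DESeq2 called 906 and edgeR on all 47 libraries called 235 at 30 dpi, so a difference at 30 dpi was found by other settings.

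**Figure D5:**
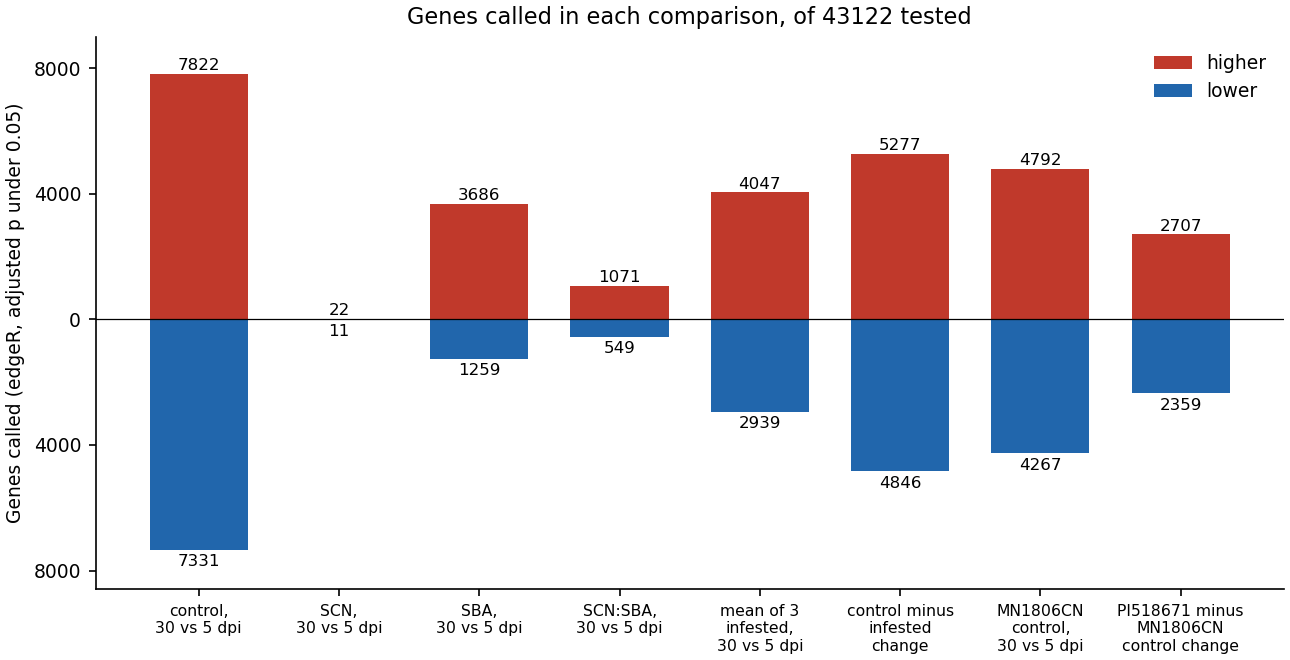
Number of genes higher (red, upward) and lower (blue, downward) at an edgeR adjusted p under 0.05 in each comparison, of 43122 tested. The control of PI518671 has 7822 higher and 7331 lower genes, each single infested treatment has fewer, and the columns of differences count genes whose change itself differed from that of infested roots or of MN1806CN control roots.

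In MN1806CN control roots, 3 at 5 dpi and 2 at 30 dpi, 9059 genes were called between the time points (21.0%), 4792 higher (11.1%) and 4267 lower (9.90%). Of the 15153 genes of PI518671, 5490 (36.2%) had the same call in MN1806CN and 302 the opposite one. The same call was found for 3258 of the 7822 genes that rose (41.7%) and for 2232 of the 7331 that fell (30.4%). The test of the difference between the cultivars was passed by 5066 genes (11.7%), 2707 more positive (6.28%) and 2359 more negative (5.47%) in PI518671. It was passed by 3850 of the 15153 (25.4%), a share that only describes them, since the PI518671 change that chose these genes enters the test. The number was 544 with replicate 1 as the only 5 dpi library of the PI518671 control, 10136 without replicate 1 and 2968 without replicate 3. Of the genes at least 64-fold lower in PI518671, 131 differed in change between the cultivars, and of those at least 64-fold higher, 29 did, although the PI518671 change that chose them enters that test.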

How the data were processed

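The authors sequenced 1 end of each fragment on an Illumina HiSeq instrument, checked the reads with FastQC 0.11.3 and MultiQC 1.3, trimmed them with Btrim64 and quantified them with Salmon 0.9.1 on the primary transcripts of Wm82.a2.v1. The authors deposited estimated counts for each gene, neither normalized nor filtered, and 42.7% of them are not whole. They were rounded. Groups came from the labels.

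Genes with 0.5 CPM in at least 1 of 47 libraries were kept, which left 43122 of 55983. The test was the two-sided quasi-likelihood F test of edgeR 4.0.16 in R 4.3.3 on all 24 PI518671 libraries in 8 group means, with TMM factors and an adjusted p under 0.05. The comparison with MN1806CN used all 47. The study states no test of differential expression. The SE of a log2 change was taken as its absolute value divided by the root of the F statistic. Levels are CPM scaled by TMM factors unless library totals are named. The scripts were tested on simulated data.

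Printed genes were chosen as those of largest change past the threshold with separated ranges and a mean of at least 1 CPM. The rule also asked for a gene description, which none had, so at most 2 identifiers that rose and 2 that fell were printed. For the same reason 40 gene lists were not used. The genes at least 64-fold changed, the neighbour runs and the contrasts at single time points were added after the data were seen. The comparison and the lists were chosen with earlier results of these data known. Alternatives were other scalings and filters, DESeq2 1.42.0, a replicate block, fewer or more libraries, and each library left out.

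A gene at the limit of 3 counts per library stands at 0.214 CPM at 5 dpi and 0.152 CPM at 30 dpi. Reads carry no molecular identifiers, so such limits cover counting error only. P-values of the fits rest on the spread between single plants within groups, estimated over all control and infested groups in the fit. The PI518671 control replicates varied more at 5 dpi than at 30 dpi (median SD 0.417 and 0.159). A shared estimate can understate the spread of the 5 dpi control, and p-values that involve it would then be too small. Each time point has 1 water bath, so spread between baths is not measured.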

Additional observations from a re-analysis of the deposited data

Results flagged for a closer look

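The time change of PI518671 control roots differed from the mean change of the infested roots in 10123 genes, and from the change of MN1806CN control roots in 5066 genes, by edgeR's test of the difference itself. Among the genes printed by identifier, Glyma.17g214700 (edgeR adjusted p of the difference 7.6e-06) was undetected in control roots at 5 dpi and present in all infested roots at that time. Glyma.03g011600 differed likewise with an edgeR adjusted p of 0.015, its infested levels overlapping between the time points. Glyma.09g163200 (edgeR adjusted p of the difference 7.6e-06) fell from 180 to 390 CPM to no counts in control roots and went from no counts to 0.0952 to 3.70 CPM in infested roots. For Glyma.13g014600 that test could not decide (edgeR adjusted p = 1), since no infested PI518671 library had a count of it. Apart from the fits with or without single control libraries, groups of 3 libraries were not searched for single outlying samples.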

How the results depend on the processing

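Of 122 counts of genes under alternatives, 101 stayed within 1.5 times the reported count, and 58 of 60 values of the 4 printed genes stayed past the threshold in the same direction. The exceptions were Glyma.03g011600 with replicate 1 as the only 5 dpi control library and Glyma.13g014600 under DESeq2 (adjusted p = 0.0504). For Glyma.03g011600 the log2 change was 10.8 in that fit and 10.7 in the main fit. With replicate 1 alone at 5 dpi, where the lone library is assumed to vary like the other groups, the counts were 4188 called, 2898 higher, 1290 lower, 1363 for the difference from infested roots, 544 for the difference from MN1806CN, 2073 for control against infested roots at 5 dpi and 36 at 30 dpi. Library totals in place of TMM factors left 4459 lower genes. DESeq2 called 257 genes under SCN, 2807 under SCN:SBA and 906 between control and infested roots at 30 dpi, and edgeR on all 47 libraries called 235 of the latter. Leaving out each control library in turn gave 10965 to 19667 called genes, 5386 to 10914 higher and 5579 to 8753 lower, 6335 to 15822 for the difference from infested roots, 2968 to 10136 for that from MN1806CN, 11291 to 20467 between control and infested roots at 5 dpi and 0 to 37 at 30 dpi. The 37 were found without replicate 1 at 5 dpi.

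Replicate numbers did not pair the control libraries, since same-numbered libraries had correlated deviations of -0.119, 0.089 and -0.246. A fit with the replicate block called 14396 genes, 7613 higher and 6783 lower, of which 14216 were called in the same direction without it, and 9 genes under SCN. The causes of these differences were not tested. Changes of genes near 0.5 CPM rest on few counts.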
